A study of Mus musculus with 12 samples.

Results

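The lysosome is acidified by the vacuolar ATPase (V-ATPase), its membrane carries the machinery that switches mTORC1 on, and its genes are driven by the MiT/TFE transcription factors. This set of 39 genes covers all of these: V-ATPase subunits, the MiT/TFE factors Tfeb, Tfe3 and Mitf, the calcium channel gene Mcoln1, Ragulator, the Rag GTPases, folliculin, mTORC1, its inhibitor TSC and the GTPase Rheb. The genes were chosen by symbol from these roles and not by a rule on their values, though earlier results of these data were known. All 39 were found among 34948 rows with a symbol, and all 39 passed the filter on low counts that left 16546 genes to test.

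Bulk RNA sequencing measured transcripts of peritoneal macrophages from 8-week-old male mice, 3 days after 3% Brewer thioglycolate was injected into the peritoneum. Ern1fl/fl mice are called WT and Mac-Ern1KO mice are called KO. The Cre driver of the deletion was not given in the sources used here, and both genotypes had received thioglycolate. The R300 groups spent 2 h with platelets coated by R300, an antibody to CD42, before RNA was taken. The blank groups are labelled Con, and the labels do not say whether platelets without antibody were added. WT and KO cells were each studied blank and with R300, which makes 4 groups of 3 libraries that the series design calls biological replicates. The title of the series names IRE1α, the stress sensor that Ern1 encodes, and the making of lysosomes, so the comparisons ask what uptake of coated platelets and loss of Ern1 change in this machinery.

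As background, the V-ATPase is a rotary pump: V1 subunits in the cytosol burn ATP and V0 subunits in the membrane move protons. Ragulator, anchored to the lysosomal membrane, holds the Rag GTPases, and these bring mTORC1 to the lysosome when amino acids are plentiful, where Rheb activates it. Active mTORC1 phosphorylates TFEB and keeps it in the cytosol. When mTORC1 is off, TFEB and its relatives enter the nucleus and bind CLEAR elements, which contain the letters CACGTG, in front of lysosomal genes. Much of this control acts on proteins and their location, which RNA counts do not measure.

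Promoter windows of RefSeq (GRCm38.p6), from 250 bases before to 50 after a start site, were matched for 32 of the 39 genes. CACGTG was present in the windows of 10 of these 32 genes (31.2%), against 8.09% of 27025 genes with a window. The longer core TCACGTG, searched on both strands and overlapping the first motif, was present in 10 of 32 (31.2%) against 4.29%. The longest motif searched, which extends this core on both sides, was present in 0 of 32 genes against 0.37% of all genes with a window. At so low a share, 32 genes are too few to show a difference. A match is a description of letters and not a bound site. The stretches around the matches are given because they hold what these genes share, read 5′ to 3′ on the gene's strand, with CACGTG in capitals:
Atp6v0b: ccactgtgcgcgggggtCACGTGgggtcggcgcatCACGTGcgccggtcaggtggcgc
Atp6v0d1: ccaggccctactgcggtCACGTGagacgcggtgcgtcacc
Atp6v0e: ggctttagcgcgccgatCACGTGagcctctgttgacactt
Atp6v1a: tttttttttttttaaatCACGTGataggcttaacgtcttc
Mcoln1: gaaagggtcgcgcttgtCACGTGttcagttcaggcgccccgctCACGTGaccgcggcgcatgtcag
Lamtor1: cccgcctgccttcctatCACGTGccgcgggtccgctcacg
Lamtor4: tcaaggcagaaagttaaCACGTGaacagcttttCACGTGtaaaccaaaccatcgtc
Rragc: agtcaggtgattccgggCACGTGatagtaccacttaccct
Fnip1: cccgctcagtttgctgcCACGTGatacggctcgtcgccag
Rheb: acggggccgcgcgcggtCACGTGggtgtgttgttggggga
The Mcoln1 stretch lies at chr8:3500431-3500496 on the plus strand, with matches that begin 71 and 45 bases before the start site. The Atp6v0b stretch lies at chr4:117887325-117887382 on the minus strand, with matches that begin 36 and 18 bases before it. The genes with a match thus include V0 and V1 subunits, Ragulator, a Rag GTPase, a folliculin partner and Rheb. The windows of Tfeb, Tfe3 and Mitf held no CACGTG.

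The libraries differed within each group in ways the labels do not give. Although the mice are labelled male, 8 libraries held Xist, a transcript made from the inactive X of female cells, at 143 to 590.0 CPM (counts scaled to library size), and the other 4 held at most 0.0742. The 4 without Xist were blank WT 3, blank KO 3, R300 WT 2 and R300 KO 3, which is 1 library in each group. Summed Y-linked transcripts were at 205 to 224 CPM in these 4 and at 42.6 to 162 in the others. Total counts ran from 21765586 to 44273655 per library. R300 WT 1 and 3, and R300 KO 1 and 2, were unusually alike, with median chi-squares over genes of 1.43 and 1.60. Other pairs within a group gave 5.35 to 9.20, and sampling noise alone gives 0.455. Whether the alike libraries are repeat preparations of 1 sample is not given in the sources used here. They were counted as separate, as labelled. If they are not, p-values for R300 and for genotype are too small, since all groups share 1 estimate of the spread. Ern1 ran from 94.1 to 235 CPM and was not lower in the KO libraries (mean genotype difference 0.30 on the log2 scale, SE 0.13, edgeR adjusted p = 1.00), and counts over the whole gene do not show whether exons were lost. Macrophage marker genes were abundant in every library, with a sum of 15825 to 17667 CPM in WT and 9721 to 11392 in KO. The gap was mostly in Lyz2, the lysozyme gene, at 12183 to 13522 CPM in WT and 6058 to 7317 in KO. Blank WT 2 and blank KO 2 stood apart in markers of other cells. Summed B cell markers were at 148 and 129 CPM in them and at 44.8 to 82.8 elsewhere. Summed neutrophil markers were at 67.1 and 74.2 CPM in them and at 9.65 to 32.4 elsewhere. Results are therefore given for all 12 libraries, and again with a term in the fit for the libraries without Xist. That term does not adjust for the level of Xist where it was present, 143 to 431 CPM in WT and 464 to 590.0 in KO.

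V-ATPase transcripts were plentiful, and the macrophages expressed both common and cell-type-restricted forms. Per kilobase of exon, the highest were Atp6v0c, which encodes the proton-carrying c ring, at 274 CPM per kb as a mean of the 4 groups, and Tcirg1, the a3 form of the V0 a subunit best known from osteoclasts, at 225. Their ranges over the 12 libraries overlapped (181 to 362 and 159 to 335). Atp6v0b followed at 141 and Atp6ap1, an accessory subunit, at 131. The regulators spread over the middle and lower part of the order, with Rragc at 54.7, Lamtor5 at 44.6 and Lamtor1 at 36.1 beside the V1 gene Atp6v1c1 at 47.8. Mtor, the kinase itself, was at 6.35 CPM per kb and Rptor, the raptor subunit that presents substrates, at 4.53. Slc38a9, a lysosomal arginine sensor, was at 1.87 and Rragd, a Rag GTPase, at 1.46. Lowest was Atp6v0e2, a second form of the V0 e subunit, at 0.105 CPM per kb, with 1 to 16 counts per library.

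**Figure D1:**
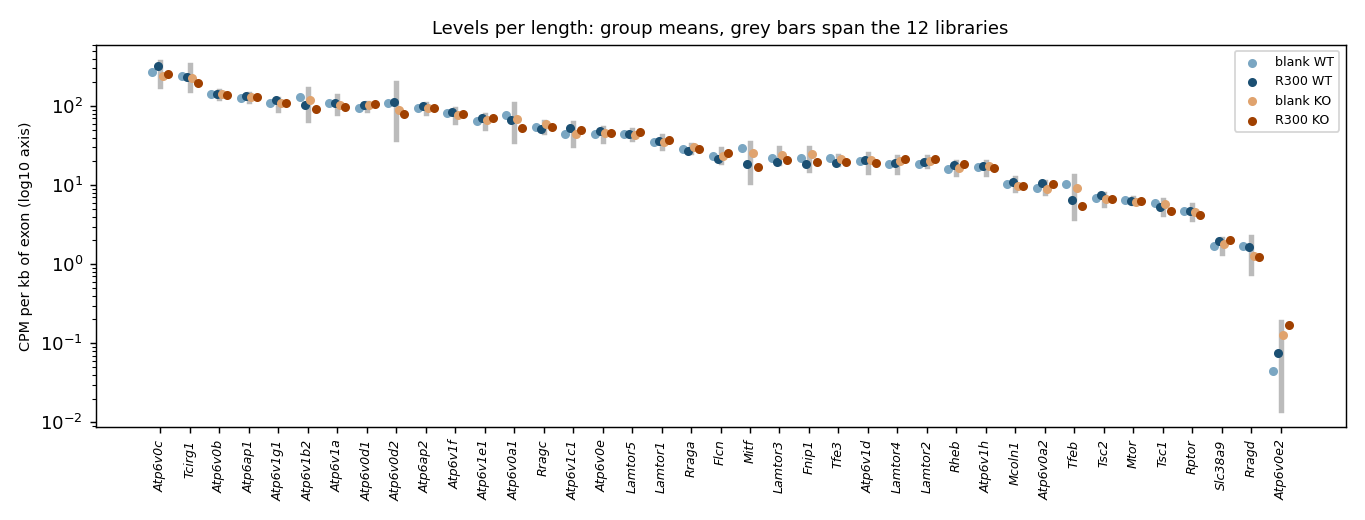
Level of each of the 39 genes in CPM per kb of exon (log10 axis), ordered by the mean of the 4 groups; points are group means of 3 libraries and grey bars span the 12 libraries. V-ATPase subunits fill the upper end, with Atp6v0c at 274, and Slc38a9, Rragd and Atp6v0e2 the lower end.

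Among forms of a subunit, the order of the d forms changed between libraries, while Tcirg1 was the highest of the 3 a forms in all 12. Tcirg1 exceeded Atp6v0a1 by 2.80 to 4.56 times per length, and Atp6v0a2 by 14.8 to 35.2 times. Among d subunits, Atp6v0d2, a form first described in osteoclasts and also found in macrophages, ran from 0.368 to 1.91 times Atp6v0d1 per length. This ratio was 1.44 to 1.91 in the 4 libraries without Xist and 0.368 to 0.833 in the 8 with it, so the order of the d forms turned with the library. Atp6v1a, the V1 catalytic A subunit, stood at 0.811 to 1.25 times Atp6v1b2, its B partner, per length of all exons. With the longest transcript as the length this range was 0.617 to 0.951, so the order of A and B depends on the length used.

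Of the genes in the set, 18 of 39 (46.2%) were above both other libraries of their group in the library without Xist, in all 4 groups, against 13.9% of all genes tested. The 18 included Tfeb, Mitf, Tcirg1, Atp6v0a1, Atp6v0d2, Atp6v0e, Atp6v1a, Atp6v1b2, Atp6v1c1, Atp6v1g1, Mcoln1, Rragc, Rragd, Lamtor5, Mtor, Rptor, Tsc1 and Tsc2. Only Tfe3 was below both in all 4 groups (2.56%, against 12.2% of all genes). The widest contrast was in Atp6v0d2. In blank WT libraries 1, 2 and 3 it stood at 212, 165 and 525 CPM, and in R300 WT at 199.7, 527 and 197. In blank KO it stood at 112, 203 and 419 CPM, and in R300 KO at 103, 114 and 433. The library without Xist was thus 2.66 to 3.98 times the mean of the others in every group. Atp6v0d1 over the same libraries moved only between 162 and 198 CPM. Tcirg1 was 1.51 to 1.68 times higher in the library without Xist, and Atp6v0a1 1.66 to 2.43 times.

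Other genes moved with this split. Gpnmb, a macrophage glycoprotein described as a MiT/TFE target, was at 11093 to 13943 CPM in the libraries without Xist and 3245 to 6476 in the others. Ctsk, the collagen-cutting protease cathepsin K, was at 244 to 277 against 60.9 to 159. The summed markers of resident peritoneal macrophages were lower, at 37.9 to 46.6 CPM against 72.7 to 345. Most of this gap was in Prg4 (13.2 to 29.3 against higher values of up to 269), and Timd4 and Gata6 overlapped between the 2 kinds of library. In bulk RNA, fewer cells of a type and less RNA per cell cannot be told apart. The part of the animals' sex or of the mix of macrophages in these differences was not tested.

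**Figure D2:**
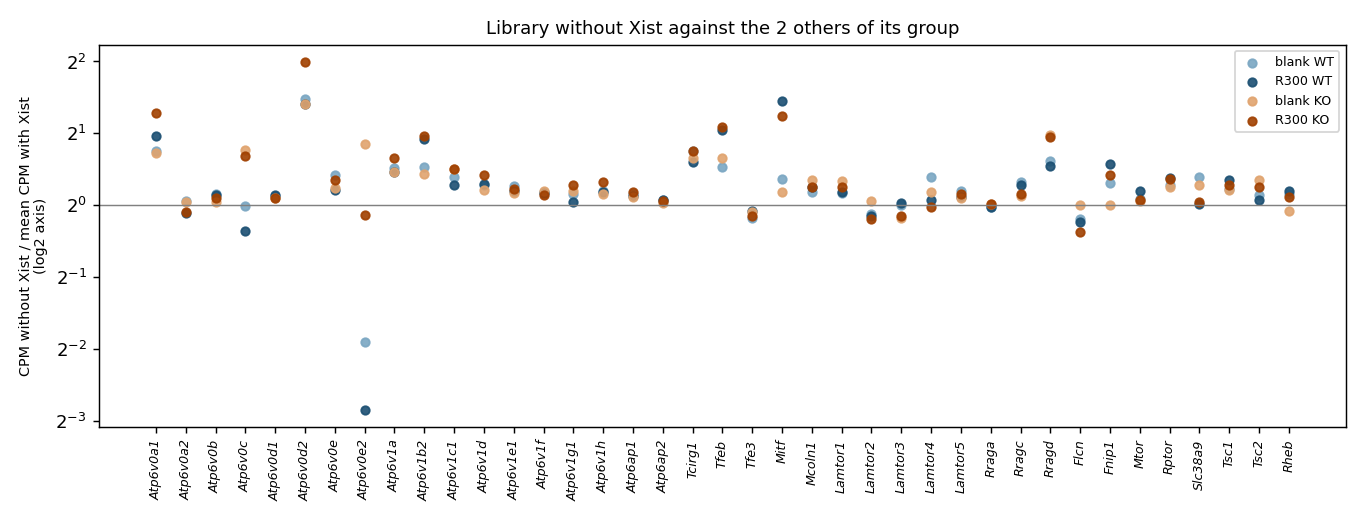
For each of the 39 genes, CPM in the library without Xist divided by the mean of the other libraries of its group (log2 axis); each point is 1 group. Atp6v0d2 sits highest, at 2.66 to 3.98, while Atp6v0e2, with 1 to 16 counts per library, scatters on both sides of 1.

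**Figure D3:**
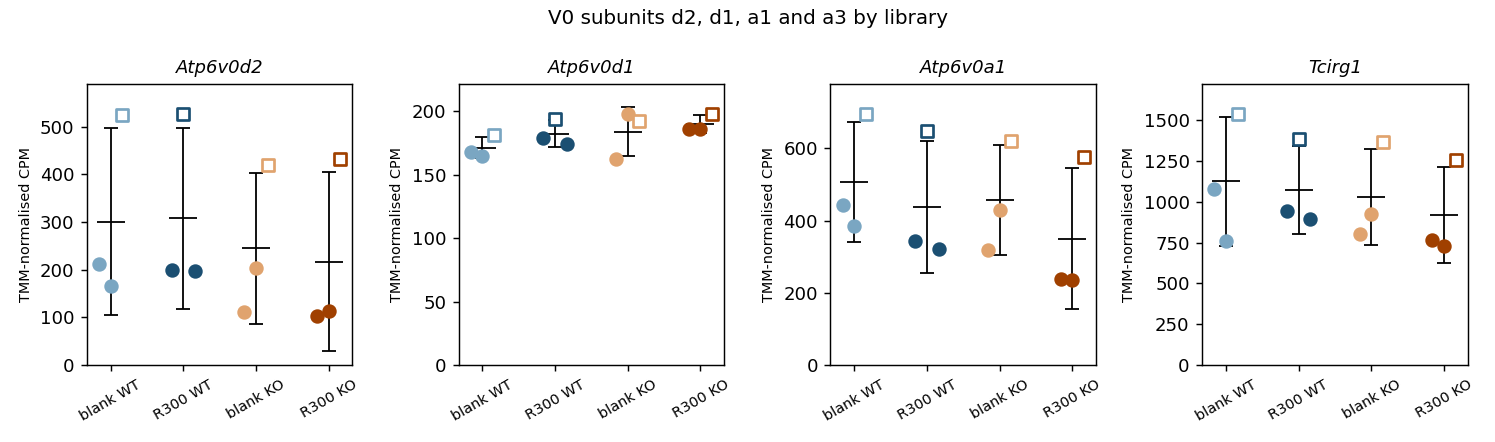
TMM-normalised CPM of Atp6v0d2, Atp6v0d1, Atp6v0a1 and Tcirg1 by group; open squares are libraries without Xist, filled circles are libraries with it, and bars are the mean and SD of 3 libraries. Atp6v0d2 spans 103 to 527 CPM and Atp6v0d1 162 to 198.

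After 2 h with R300-coated platelets, most genes of the set lay close to their blank level, and the lowest values relative to blank were those of Tfeb and Mitf. Averaged over both genotypes, Tfeb was 0.600 times, Mitf 0.645 times and Tfe3 0.889 times the blank level. No gene of the set passed the test in edgeR's quasi-likelihood fit of all 12 libraries (0 of 39, where 3.64% of all genes were called), and 4 had an unadjusted p under 0.05: Tfe3, Tfeb, Lamtor3 and Atp6v0a2. DESeq2 also called 0 (5.96% of all genes), with a lowest adjusted p of 0.0802. The median log2 difference of the set was 0.01, with 20 genes above 0 and 19 below, and that of all genes was -0.00. When the fit carried the term for the libraries without Xist, 5 of the 39 were called, all lower: Tfeb, Mitf, Tfe3, Atp6v1b2 and Tsc1. In that fit 9.02% of all genes were called, 3.97% lower and 5.05% higher.

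Tfeb, the main transcriptional activator of lysosomal genes (chr17:47737030-47792419, plus strand), had the lowest adjusted p of the set in the fit with the Xist term. In blank WT libraries 1, 2 and 3 it stood at 64.5, 38.2 and 73.9 CPM, and in R300 WT at 27.4, 55.3 and 26.4. In blank KO it stood at 53.1, 35.0 and 69.2 CPM, and in R300 KO at 22.4, 21.9 and 47.3. The groups overlapped in both genotypes, because the R300 library without Xist (55.3 and 47.3) was above the lowest blank library. Between libraries with Xist, R300 over blank was 0.523 in WT and 0.503 in KO, or 0.417 and 0.418 against blank library 1 alone. Between libraries without Xist the ratio was 0.749 in WT and 0.684 in KO. The last 2 ratios are of single libraries and have no replicate. Over all 12 libraries the log2 difference was -0.74 (SE 0.28, edgeR adjusted p = 0.231). With the Xist term Tfeb fell by 0.80 (SE 0.15, edgeR adjusted p = 0.00880). It was called in each of 12 such fits that left out 1 library, with edgeR adjusted p from 0.00762 to 0.0333. It was not called when R300 WT 3 and R300 KO 2, 1 of each near-alike pair, were left out together (-0.74, edgeR adjusted p = 0.103). Mitf, Tfe3, Atp6v1b2 and Tsc1 were not called in that setting either. Over 22 alternatives the log2 difference of Tfeb ran from -0.98 to -0.55.

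Mitf, the relative of Tfeb known from pigment cells and osteoclasts (chr6:97807052-98021349, plus strand), split more sharply by library. Its blank WT libraries stood at 127, 204 and 213 CPM, and R300 WT at 75.2, 198 and 69.4. Its blank KO libraries stood at 134, 168 and 171 CPM, and R300 KO at 75.2, 68.2 and 169. The R300 libraries with Xist were below every blank library, and those without Xist were not. R300 over blank was 0.436 (WT) and 0.475 (KO) with Xist, against 0.928 and 0.988 without it. Against blank library 1 alone, the ratio with Xist was 0.569 in WT and 0.535 in KO. Mitf fell by 0.78 with the Xist term (SE 0.20, edgeR adjusted p = 0.0357), and in the 8 libraries with Xist by 1.13 (edgeR adjusted p = 0.00924). In the latter fit 4 of the 39 genes were called, all lower (Mitf, Tfeb, Atp6v1b2 and Atp6v0a1), against 2.74% of all genes lower. Each R300 group in it is 1 near-alike pair (R300 WT 1 and 3, R300 KO 1 and 2), so its p-values may be too small. With the Xist term the Mitf call was lost in 7 of the 12 fits that left out 1 library. Those were the fits without blank WT 2 (edgeR adjusted p = 0.0626), R300 WT 1 (0.109), R300 WT 3 (0.109), blank KO 1 (0.0667), blank KO 2 (0.0709), R300 KO 2 (0.103) or R300 KO 1.

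Tfe3, an X-linked relative that also drives lysosomal genes (chrX:7762560-7775202, plus strand), showed a small and even difference. Its blank WT libraries stood at 213, 215 and 189.5 CPM, and R300 WT at 181, 170.1 and 179. Its blank KO libraries stood at 209, 195 and 189.7 CPM, and R300 KO at 196, 181 and 170.2. The groups did not overlap in WT and overlapped in KO. The R300 over blank ratio was 0.898 and 0.897 in the libraries without Xist, and 0.840 and 0.933 in those with it. With the Xist term Tfe3 fell by 0.17 (SE 0.05, edgeR adjusted p = 0.0443), a call that held in 1 of 12 fits leaving out a library (that without blank KO 2).

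Tfec, the fourth MiT/TFE gene and one largely restricted to macrophages, lay outside the set and was called with all 12 libraries. It stood at 19.3, 20.7 and 14.6 CPM in blank WT and 9.96, 10.6 and 9.72 in R300 WT. In KO it stood at 25.3, 23.3 and 14.5 CPM in blank and 11.7, 10.7 and 9.95 in R300. Blank and R300 libraries did not overlap in either genotype. Tfec fell by 0.91 (SE 0.14, edgeR adjusted p = 0.00528), and the call held in all 12 fits that left out 1 library. It was lost without 1 of each near-alike pair (edgeR adjusted p = 0.0635).

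**Figure D4:**
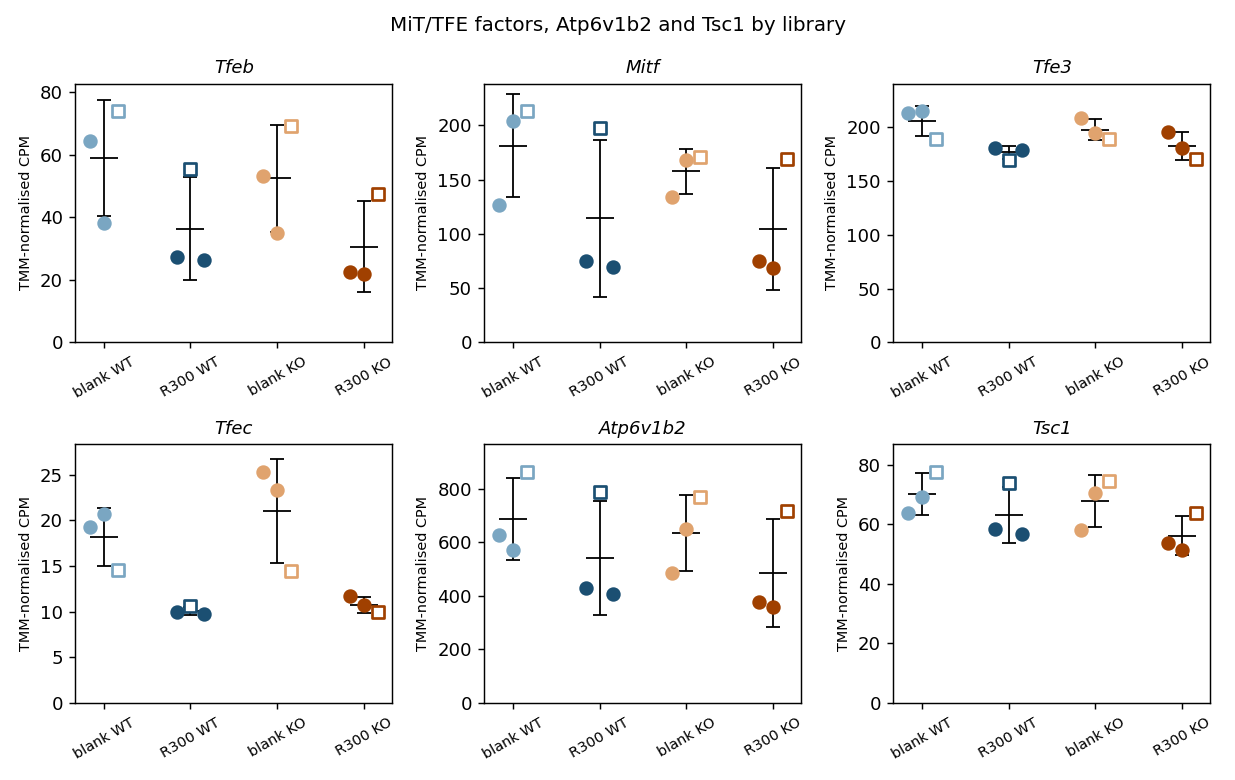
TMM-normalised CPM of Tfeb, Mitf, Tfe3, Tfec, Atp6v1b2 and Tsc1 by group; open squares are libraries without Xist, filled circles are libraries with it, and bars are the mean and SD of 3 libraries. R300 libraries with Xist lie lowest for Tfeb (21.9 to 27.4) and Mitf (68.2 to 75.2), and Tfec separates blank from R300 in both genotypes.

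Some markers of other cells moved with the R300 groups. The summed recruited-monocyte markers were 96.5 to 242 CPM in blank WT and 58.8 to 94.8 in R300 WT, and 139 to 232 and 82.6 to 109 in KO. Of the 5, Cx3cr1 was called lower in the 12-library fit, and Ccr2 also with the Xist term. The summed mast cell and eosinophil markers were 12.6 to 14.3 CPM in blank WT and 27.5 to 33.4 in R300 WT, and 17.8 to 29.7 and 33.5 to 52.9 in KO. Of those 8, Gata2, Mcpt4 and Tpsb2 were called higher. The summed osteoclast-like markers overlapped between blank and R300 in both genotypes. Of those 6, only Dcstamp, a cell fusion gene, was called, and it was higher in both fits. Over both genotypes it was at 5.02 to 10.3 CPM in blank and 15.2 to 29.4 in R300, with no overlap. None of these markers was at 0 in every library. Their part in the MiT/TFE differences was not tested.

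With all 12 libraries no V1 subunit was called, and with the Xist term Atp6v1b2, the B subunit of the catalytic head, was called lower. It stood at 628, 571 and 862 CPM in blank WT and 429.9, 788 and 405 in R300 WT. In KO it stood at 486, 651 and 769 CPM in blank and 377, 359.8 and 717 in R300. R300 and blank overlapped, with both R300 libraries with Xist below every blank library of their genotype. It fell by 0.42 with the Xist term (SE 0.10, edgeR adjusted p = 0.0258), and the call was lost in 4 of the 12 fits, those without R300 WT 1 (0.0786), R300 WT 3 (0.0846), R300 KO 1 or R300 KO 2. It was also called in the 8 libraries with Xist (edgeR adjusted p = 0.0243), where each R300 group is 1 near-alike pair. The other 7 V1 genes were called in neither the 12-library fit nor that with the Xist term, and their log2 differences in the 12-library fit ran from -0.03 (Atp6v1a and Atp6v1d) to 0.20 (Atp6v1c1). The B subunit therefore lay apart from its A partner: Atp6v1a over Atp6v1b2 per length was 0.811 to 0.871 in blank WT and 0.914 to 1.25 in R300 WT, and 0.823 to 0.916 and 0.967 to 1.20 in KO.

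No V0 or accessory subunit was called with either fit. Atp6v0a2, an a subunit of the Golgi and endosomes, was the only gene of the set that did not overlap between blank and R300 in both genotypes. It stood at 65.3, 57.9 and 64.0 CPM in blank WT and 74.7, 67.2 and 71.0 in R300 WT. In KO it stood at 65.3, 53.5 and 61.0 CPM in blank and 72.7, 72.2 and 67.8 in R300. The log2 difference was 0.21 (SE 0.07, edgeR adjusted p = 0.115), and 9.86% of its exonic length overlaps 4930404A12Rik on the opposite strand, which these libraries cannot tell apart. Without overlap there were 4 genes of the set in WT (Tfe3, Lamtor3 and Rraga lower, Atp6v0a2 higher), where 12.8% of all genes did not overlap, and 1 in KO, where 12.3% did not. Neither count stands above that background. The accessory gene with the lowest p was Atp6ap2, the prorenin receptor, at 0.05 (SE 0.07, edgeR adjusted p = 0.800). Its 12 libraries ran from 211 to 275 CPM.

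Mcoln1, the calcium channel that releases lysosomal calcium toward calcineurin and TFEB, stayed between 66.3 and 92.4 CPM. Its log2 difference with R300 was 0.04 (SE 0.09, 95% interval -0.16 to 0.24, edgeR adjusted p = 0.887). Of the Ragulator genes, Lamtor3 had the lowest p. Its libraries stood at 89.1, 92.5 and 91.3 CPM in blank WT and 79.9, 81.9 and 80.3 in R300 WT, and at 87.3, 123 and 92.5 in blank KO and 91.6, 87.5 and 80.2 in R300 KO. The groups were apart in WT and overlapped in KO, and the mean log2 difference was -0.20 (SE 0.08, edgeR adjusted p = 0.280). The other 4 Ragulator genes lay between 0.04 and 0.06.

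Rraga, which encodes the RagA GTPase, ran from 42.5 to 52.9 CPM with a log2 difference of -0.09 (SE 0.05, edgeR adjusted p = 0.469). Rragc was at -0.10 and Rragd at -0.02. Fnip1, the folliculin partner in the complex that acts on RagC and RagD, stood at 124, 172 and 184 CPM in blank WT and 114, 168 and 111 in R300 WT. In KO it stood at 138, 211 and 175 CPM in blank and 124, 126 and 167 in R300. The groups overlapped and the log2 difference was -0.31 (SE 0.16, edgeR adjusted p = 0.382). Flcn itself was at 0.01. Slc38a9 was at 0.19 (SE 0.11, edgeR adjusted p = 0.438) with 23.1 to 35.0 CPM. Mtor was at -0.02, and its 12 libraries ran only from 59.8 to 69.9 CPM. Rptor was at -0.06 (SE 0.11, edgeR adjusted p = 0.863) with 50.1 to 74.7 CPM.

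Tsc1, the scaffold of the complex that turns Rheb off, stood at 63.8, 69.1 and 77.6 CPM in blank WT and 58.6, 74.1 and 56.9 in R300 WT. In KO it stood at 58.0, 70.6 and 74.7 CPM in blank and 53.7, 51.3 and 63.8 in R300. Tsc1 fell by 0.21 with the Xist term (SE 0.06, edgeR adjusted p = 0.0443), a call kept in 4 of 12 fits that left out a library, those without blank WT 1, blank KO 1, blank KO 2 or blank KO 3. Tsc2, its catalytic partner, was at 0.05 (SE 0.09), and Rheb at 0.18 (SE 0.10). Rheb became called, higher, when blank WT 2 and blank KO 2 were left out with the Xist term (0.31, SE 0.04, edgeR adjusted p = 0.00135), a setting chosen after seeing the data. That fit called 9 of the 39 genes (15.1% of all genes): Rheb, Atp6v0a2, Atp6v1c1 and Atp6v1e1 higher, and Tfeb, Tfe3, Tsc1, Atp6v1b2 and Atp6v0a1 lower. In it each blank group held 1 library with Xist and 1 without, and the R300 libraries with Xist were the near-alike pairs. If those pairs are not separate samples, its SEs are too small.

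**Figure D5:**
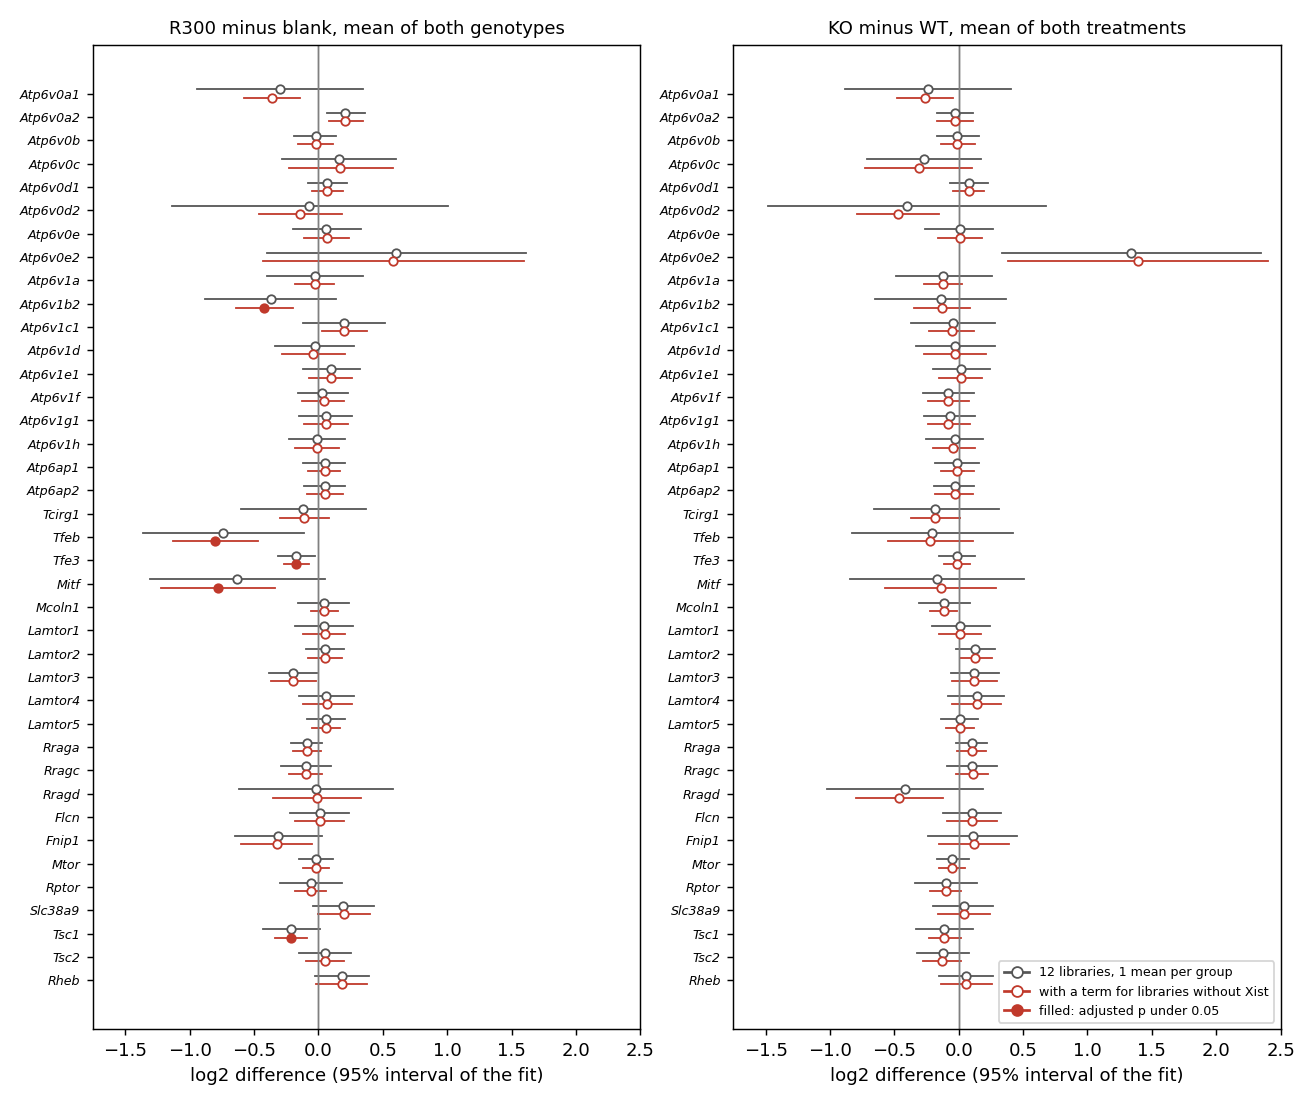
Log2 difference with its 95% interval for the 39 genes: R300 minus blank (left) and KO minus WT (right), from the 12-library fit (grey) and the fit with a term for the libraries without Xist (red). Filled points are called: Tfeb, Mitf, Tfe3, Atp6v1b2 and Tsc1 in the left panel, and none in the right.

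Within a single genotype no gene of the set was called in the fit of all 12 libraries. In WT 0 of 39 passed (0.623% of all genes did), with 1 unadjusted p under 0.05 (Tfe3) and 0 called by DESeq2 (2.31%). In KO 0 of 39 passed (0.834% of all genes), with 1 unadjusted p under 0.05 (Atp6v0a2) and 0 called by DESeq2 (2.37%). Leaving out blank WT 2 and blank KO 2 with the Xist term, as above, called Rheb higher in WT (edgeR adjusted p = 0.0458, where 4.62% of all genes were called). In KO it called Rheb higher (0.00752) and Tfeb lower (edgeR adjusted p = 0.0439), where 6.26% of all genes were called. With all 12 libraries Tfeb differed by -0.70 in WT (SE 0.40, edgeR adjusted p = 0.710) and by -0.78 in KO (SE 0.40, edgeR adjusted p = 0.674). The difference between these responses was -0.08, with a 95% interval of -1.33 to 1.17, or -0.73 to 0.58 with the Xist term. For Mitf the difference was 0.07 (-1.28 to 1.43). In the test of the difference of responses 0 of 39 passed (0% of all genes), with 0 unadjusted p under 0.05 and 0 called by DESeq2 (0%). The intervals are wide, and they do not show that the genotypes respond alike.

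Wider lists of genes around the pathway were examined in the same fits. Of 63 other genes of the V-ATPase, TFEB and mTORC1 pathways, 62 were in the table and 57 were tested. With all 12 libraries 2 rose and 3 fell with R300, against 3.64% of all genes called. Castor1, a cytosolic arginine sensor that holds mTORC1 back, was at 3.72, 3.75 and 2.74 CPM in blank WT and 14.7, 7.17 and 13.2 in R300 WT. In KO it was at 4.87, 3.65 and 3.58 CPM in blank and 17.2, 14.5 and 7.34 in R300. No library overlapped, and Castor1 rose 3.33-fold (edgeR adjusted p = 0.00280). Ddit4, a stress-induced activator of TSC, rose 4.25-fold (edgeR adjusted p = 0.00339). It was at 5.64 to 8.41 CPM in blank WT and 14.0 to 36.5 in R300 WT, and at 5.62 to 9.52 and 15.6 to 40.5 in KO. Both of these held in all 12 fits that left out a library. In KO alone Ddit4 was called at 0.0474 (edgeR adjusted p), a call that ended in 10 of 12 such fits (up to 0.214), all but those without R300 WT 2 or R300 KO 3.

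The other 2 that fell, beside Tfec, are mTORC1 regulators. Kics2, a subunit of the KICSTOR scaffold, fell to 0.745 times its blank level (edgeR adjusted p = 0.0313). Bmt2, which encodes the methyl-donor sensor SAMTOR, fell to 0.564 times (edgeR adjusted p = 0.0354). Kics2 lost its call in 9 of the 12 fits that left out a library (edgeR adjusted p up to 0.0982), all but those without blank WT 3, blank KO 3 or R300 WT 2. Bmt2 lost it in 10 (up to 0.105), all but those without R300 WT 2 or R300 KO 3. Both calls were also lost without 1 of each near-alike pair (edgeR adjusted p = 0.240 for Kics2 and 0.215 for Bmt2). When the Xist term was added 5 rose and 6 fell, where 5.05% of all genes were called higher and 3.97% lower. The additional genes, outside the rule for named genes, were Tpcn2, Nprl2 and Castor2 (higher) and Sesn1, Sesn2 and Pip4p1 (lower). Sesn1 and Sesn2, leucine-linked inhibitors of mTORC1, thus moved opposite to Castor1 in that fit. With all 12 libraries neither was called (edgeR adjusted p = 0.0554 and 0.0647). Sesn2 stood highest in blank WT 2 and blank KO 2, at 57.3 and 89.3 CPM, against 24.5 to 38.0 in the other blank libraries. Sesn3 was at 0.37 with all 12 libraries (edgeR adjusted p = 0.320), the same direction as Castor1. The list had a median log2 difference of -0.03.

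Of 36 genes outside the set that are described as TFEB targets, all tested, 0 fell and 1 rose with R300 in the fit of all 12 libraries, where 3.64% of all genes were called. That gene was Ppargc1a, which encodes the mitochondrial regulator PGC-1α, at 0.0433 to 0.148 CPM in blank WT and 0.303 to 0.865 in R300 WT. In R300 KO it was at 0.673 to 1.14 CPM, above every blank KO library. Averaged over both genotypes it rose 4.39-fold (edgeR adjusted p = 0.0210), from very few reads. Only R300 libraries were high enough for Ppargc1a to pass the filter on low counts. Its rise and its call are therefore not independent support. Its call ended without blank WT 1, blank WT 2 or R300 KO 1, at edgeR adjusted p up to 0.0535, and without 1 of each near-alike pair (0.0649). It was also lost in the 8 libraries with Xist (edgeR adjusted p = 0.0684). In the fit with the Xist term 3 rose, Ppargc1a, Neu1 and Hif1a, and 0 fell, where 9.02% of all genes were called. The median log2 difference was 0.02, with 23 of 36 above 0.

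In the fit of all 12 libraries, no gene of the set passed the test between KO and WT. In the mean genotype difference 0 of 39 passed (0.00604% of all genes did), with 1 unadjusted p under 0.05 (Atp6v0e2) and 0 called by DESeq2 (0.287%). In blank and in R300 taken alone 0 of 39 passed (0% of all genes in each), with 1 and 0 unadjusted p under 0.05 and 0 called by DESeq2 (0.00615% and 0.0808%). The median log2 difference was -0.03 for the set, with 15 genes above 0 and 24 below, and -0.00 for all genes. Without overlap there were 2 genes in blank, Lamtor2 and Atp6v0e2 higher in KO (3.70% of all genes), and 3 in R300, Rraga, Lamtor4 and Atp6v0e2 higher in KO (7.91%).

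Atp6v0e2 had the largest genotype difference, from very few reads. Only KO libraries were high enough for it to pass the filter on low counts. Its difference, unadjusted p and lack of overlap between genotypes are therefore not independent support. Blank WT libraries held 4, 4 and 1 counts, R300 WT 8, 1 and 9, blank KO 10, 8 and 16, and R300 KO 13, 11 and 12. KO was above WT in both treatments, with a log2 difference of 1.34 (SE 0.46, edgeR adjusted p = 1.00). Lamtor2, a Ragulator subunit, was at 23.1, 23.5 and 21.5 CPM in blank WT and 24.8, 24.6 and 25.6 in blank KO (mean difference 0.13, SE 0.07, edgeR adjusted p = 1.00). In R300 it was at 25.7, 21.9 and 23.2 CPM in WT and 27.6, 26.3 and 23.6 in KO, which overlapped. Rraga, the RagA gene, was 0.10 higher (SE 0.05). The other members with the lowest p of their roles were Tfeb (-0.21, SE 0.28), Mcoln1 (-0.11, SE 0.09), Tsc2 (-0.12, SE 0.09), Flcn (0.10, SE 0.10), Rptor (-0.10, SE 0.11), Atp6v1f (-0.08, SE 0.09), Slc38a9 (0.04, SE 0.11) and Atp6ap2 (-0.03, SE 0.07).

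The V0 forms Atp6v0d2 and Tcirg1 were called lower in KO under 1 of the settings run, which was chosen after seeing the data. When blank WT 2 and blank KO 2 were left out with the Xist term, Atp6v0d2 differed by -0.64 (SE 0.11, edgeR adjusted p = 0.0242) and Tcirg1 by -0.27 (SE 0.05, edgeR adjusted p = 0.0214). In that fit 2 of 39 were called, both lower, where 1.82% of all genes were called lower. It keeps the near-alike R300 pairs, so its SEs may be too small. Its libraries with Xist held Xist at 143 to 169 CPM in WT and 553 to 590.0 in KO. Genotype and the level of Xist cannot be told apart in them. With all 12 libraries Atp6v0d2 differed by -0.40 (SE 0.49) and Tcirg1 by -0.18 (SE 0.22), each at an edgeR adjusted p of 1.00. Among libraries without Xist, Atp6v0d2 stood at 525 and 527 CPM in WT and at 419 and 433 in KO. Tcirg1 lay closer together there, at 1540.1 and 1386 CPM in WT and 1365 and 1257 in KO. These libraries deviated together within a genotype and may not be independent. The correlation over genes was 0.65 for blank WT 3 with R300 WT 2 and 0.67 for blank KO 3 with R300 KO 3.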

How the data were processed

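Per the labels' protocols, oligo(dT)-selected RNA was copied with the NEBNext Ultra kit, which does not mark strand. The submitters' processing notes name mm10, featureCounts 2.0.3, HISAT2, fastp 0.23.4, FastQC 0.12.1 and DESeq2 1.42.0. The authors deposited raw counts per gene in a table of 35050 rows, and 102 rows without a symbol (0.0232% to 0.0328% of a library) were left out. Counts were tested with edgeR 4.0.16 in R 4.3.3 (TMM, filterByExpr, robust quasi-likelihood, 1 mean per group, 12 libraries). Benjamini-Hochberg adjusted p under 0.05 over 16546 genes was called. The 7 comparisons were R300 in WT and in KO, genotype in blank and in R300, the difference of responses, and both means. Levels are TMM-normalised CPM, and per-length levels use all exons of GENCODE (GRCm38). A low count limits precision, most for Atp6v0e2. The scripts were tested on simulated data. Genes named are the called ones and, in each role group, the lowest p in the mean R300 response and the mean genotype difference. From the wider lists, up to 5 called genes per comparison are named. The genes, lists and the Xist term were chosen with earlier results of these data known. Same-numbered blank WT and blank KO libraries deviated together (3 correlations of 0.59 to 0.65 over genes), so the numbers pair that comparison, as a match in the data and not a stated pairing. In every other pair of groups at least 1 of 3 same-numbered correlations was 0.1 or lower. Some libraries of unlike number also deviated together, such as blank WT 3 with R300 WT 2 (0.65) and R300 WT 3 with R300 KO 2 (0.68). The numbers therefore do not show whether blank and R300 libraries were paired. P-values measure the spread between these libraries. Alternatives were DESeq2, other scaling, no filter, only the groups compared, a replicate block, the Xist term, the 8 libraries with Xist, near-alike libraries left out, and each library left out in turn.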

Additional observations from a re-analysis of the deposited data

How the results depend on the processing

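Of the values recomputed under the alternatives, 753 kept their direction and side of the threshold, 46 lost a call, 13 gained one, 9 changed sign, and 6 counts of called genes and 1 ratio of levels moved. The count of genes of the set called in the mean R300 response was 0 with all 12 libraries, 5 with the term for libraries without Xist, and 4 with only the 8 libraries with Xist. Leaving out blank WT 2 and blank KO 2 with that term, a setting chosen after seeing the data, gave 9 in the mean R300 response, 1 in WT (Rheb), 2 in KO (Rheb and Tfeb) and 2 in the mean genotype difference. The share of all genes called moved as well, from 3.64% to 9.02%, 6.04% and 15.1%. The near-alike R300 pairs were kept in all of these fits. Near 0, Mcoln1 turned to -0.01 with library totals only and Rptor to 0.01 without 1 of each near-alike pair in the mean R300 response, and the cause was not tested. With 1 library left out, Mcoln1 ran from -0.01 to 0.09 and Atp6ap2 from -0.00 to 0.10 with R300. In the mean genotype difference Atp6ap2 ran from -0.08 to 0.01, Tfeb from -0.43 to 0.01 and Slc38a9 from -0.00 to 0.11. The fits of the Xist term that left out 1 library were also added after seeing the data. Over the 18 same-numbered pairs of libraries the correlation of deviations ran from -0.72 to 0.67, 9 were over 0.1, and 7 of 12 libraries correlated best with their own number. With the replicate block 0 genes of the set were called in any comparison, 4.03% of all genes were called in the mean R300 response, and Bmt2 lost its call (edgeR adjusted p = 0.0633), as did Ddit4 in KO (0.0817). For blank WT against blank KO, where the numbers paired, a replicate block over those 6 libraries, added after seeing the data, also called 0 of 38 genes tested (0% of all genes), so it changed no call of the set. Depth limits Atp6v0e2 (1 to 16 counts) and, outside the set, Ppargc1a (1.14 CPM or lower).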
